A study of Homo sapiens with 15 samples.

Results

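The compound IXA6 was compared with its vehicle, DMSO, in HEK293T cells, a line derived from human embryonic kidney that carries the SV40 large T antigen. Both sets of 3 libraries were chosen by their names in the deposited count table, so that 6 of the 14 libraries matched to a sample title entered the comparison, with all 13243 genes of the table. The groups of the study were IXA6, IXA4, IXA1, thapsigargin (Tg) and DMSO, each given for 4 h to cells kept in the same DMEM-based medium, in what the labels call independent experiments. IXA1 has 2 matched libraries and every other group has 3, since no column bears the name of the third IXA1 sample. The series describes IXA1, IXA4 and IXA6 as activators of IRE1/XBP1s signalling and Tg as a global activator of the unfolded protein response. The labels at hand state no dose, and all groups share 1 transformed cell line.

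The unfolded protein response is the set of signals by which a cell answers misfolded protein in the endoplasmic reticulum (ER). Of its branches, the sensor IRE1 (gene ERN1) cuts XBP1 mRNA so that it is spliced into the form that encodes the transcription factor XBP1s, which acts on genes of ER protein import, folding, degradation and export. ATF6 is an ER-bound transcription factor released by proteolysis, and PERK (gene EIF2AK3) phosphorylates eIF2α, which lowers translation and induces ATF4, CHOP and other genes of the integrated stress response (ISR). Thapsigargin empties the ER of calcium by blocking its calcium pump and engages all of these branches. Gene-level counts do not tell spliced from unspliced XBP1 mRNA.

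Total counts ranged from 15025135 to 15509818 over the 6 libraries, and the biological coefficient of variation over all 14 libraries was 5.66%. Levels are given as CPM, the counts of a library scaled to a common total with TMM factors, and compare the same gene between libraries, since they are not divided by length. Of 18 markers known to be expressed in HEK293T cells 13 were measured, with a summed level of 908 to 934 CPM in IXA6 libraries and 936 to 967 CPM in DMSO libraries. Of 8 markers of fibroblasts and endothelium 3 were measured, COL1A1, COL3A1 and LUM, summing to 15.6 to 17.5 CPM in IXA6 and 17.2 to 19.4 CPM in DMSO. Of 8 markers of liver, muscle and gut ACTA1 and CDX2 were measured, summing to 47.9 to 52.4 CPM in IXA6 and 51.7 to 54.7 CPM in DMSO. In bulk RNA, fewer cells of a type and less RNA per cell cannot be told apart.

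The genes called higher with IXA6 included 12 of 23 measured BiP and co-chaperone genes, 8 of 22 translocon genes and 5 of 18 COPII genes, nearly all by less than 2-fold, and fewer genes were called lower. At an adjusted p under 0.05 (quasi-likelihood test of edgeR, Benjamini-Hochberg over all genes), 303 of 13243 genes (2.29%) changed. Of these 200 were higher (1.51% of the genes tested) and 103 were lower (0.778%). The median log2 fold change was 0.32 among the higher and -0.29 among the lower genes, against 0.00053 over all genes. Among the 303, 20 rose and 4 fell by at least 1.5-fold. An unadjusted p under 0.05, given further on for single lists, was reached by 2246 of the 13243 genes. In 300 of the 303 the 3 IXA6 values lay wholly on 1 side of the 3 DMSO values, as did 1588 genes above (12%) and 1594 below (12%) among all genes.

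The count of calls depended on which library was left out. Without IXA6 replicate 1, 2 or 3 the numbers of genes called were 122, 130 and 319. Without DMSO replicate 1, 2 or 3 they were 164, 118 and 147. Across these, 102 to 202 genes were higher and 15 to 117 were lower. In the authors' deposited table for IXA6, 475 genes had an adjusted p under 0.05, of which 263 were also called here, which is 55.4% of theirs and 86.8% of the calls made here. The log2 fold changes of all 303 had the same sign in the authors' deposited table.

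**Figure D1:**
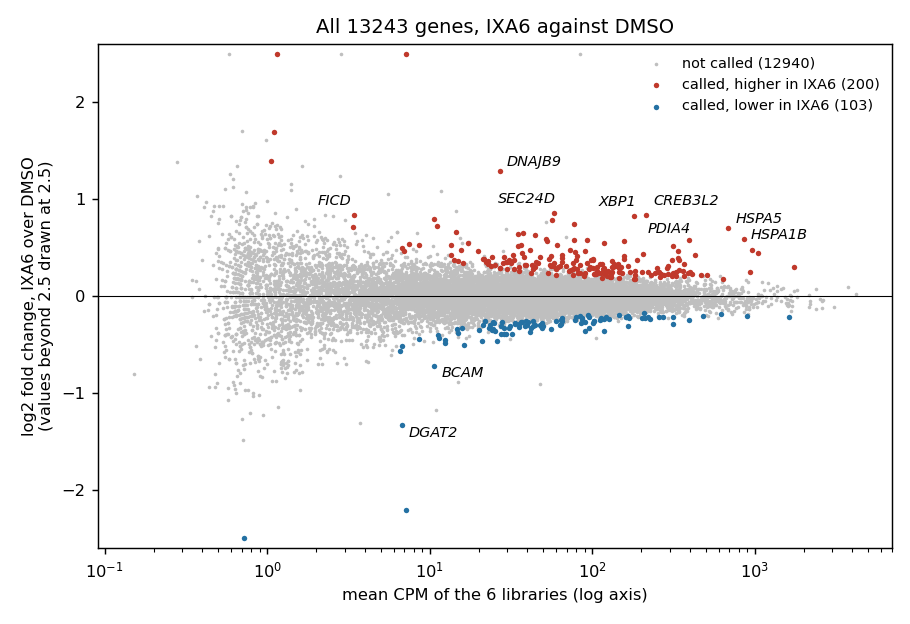
Log2 fold change of IXA6 over DMSO (vertical axis) against mean CPM of the 6 libraries (horizontal log axis), 1 point per gene, with genes called higher in red, called lower in blue and all others in grey, and with values beyond 2.5 drawn at 2.5. The points called higher include well expressed ER genes such as HSPA5 and PDIA4, and the called falls lie mostly between 0 and -0.5.

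DNAJB9, a BiP co-chaperone that helps to hold IRE1 inactive, had the largest rise among the genes named for their size of change, which had to average at least 2 CPM and separate the groups. It had 41.91, 38.25 and 35.61 CPM in IXA6 libraries, against 14.72, 16.25 and 16.28 CPM in DMSO libraries. Every IXA6 library of DNAJB9 was far above every DMSO library, and the log2 fold change was 1.29 ± 0.08 (SE), with an adjusted p of 6.93e-11.

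SEC24D, the subunit of the COPII coat that picks cargo for export from the ER, stood at 74.89, 77.19 and 73.76 CPM in IXA6 libraries and 41.91, 42.72 and 40.06 CPM in DMSO libraries. The groups were far apart and each was tight, with a log2 fold change of 0.86 ± 0.06 (SE) and an adjusted p of 1.14e-09. CREB3L2, an ER-anchored transcription factor that is cut and released like ATF6, was measured at 263.34, 283.13 and 282.31 CPM with IXA6 and 156.58, 157.79 and 150.57 CPM with DMSO. Its groups did not overlap either, and the log2 fold change was 0.83 ± 0.05 (SE; adjusted p = 5.34e-11).

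Of the genes of the 3 sensors EIF2AK3 rose, while ERN1 and ATF6 did not pass the test, and XBP1, the substrate of IRE1, rose. XBP1 mRNA, spliced and unspliced together, was at 230.43, 234.89 and 233.16 CPM in IXA6 libraries and 126.31, 129.77 and 136.73 CPM in DMSO libraries (log2 fold change 0.83 ± 0.05 SE, adjusted p = 6.93e-11). The 3 IXA6 values were within a few CPM of each other and all above the DMSO values. EIF2AK3 was at 40.32, 45.18 and 42.98 CPM with IXA6 and 26.43, 28.15 and 28.14 CPM with DMSO, again without overlap (0.64 ± 0.07 SE, adjusted p = 1.09e-06). ERN1 gave 13.44, 14.57 and 14.43 CPM with IXA6 and 15.87, 12.81 and 13.71 CPM with DMSO, which overlap (0.00 ± 0.10 SE, adjusted p = 0.996). ATF6 overlapped as well, with means of 106 CPM in IXA6 and 108 CPM in DMSO (-0.03 ± 0.05 SE, adjusted p = 0.828). XBP1 and EIF2AK3 were 2 of the 9 measured members of the list of sensors and IRE1 processing, and the list's median log2 fold change was 0.03.

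HSPA5 encodes BiP, the main ER chaperone and the protein that binds the sensors when folding demand is low. It had 861.99, 864.53 and 839.81 CPM in IXA6 libraries, against 529.18, 504.11 and 538.76 CPM in DMSO libraries (0.71 ± 0.05 SE, adjusted p = 8e-10). HERPUD1, a scaffold of the ER degradation complex, was at 70.72, 72.04 and 73.18 CPM with IXA6 and 43, 43.36 and 39.27 CPM with DMSO (0.78 ± 0.06 SE, adjusted p = 3.95e-09). Both genes separated the groups by far more than the spread within either.

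**Figure D2:**
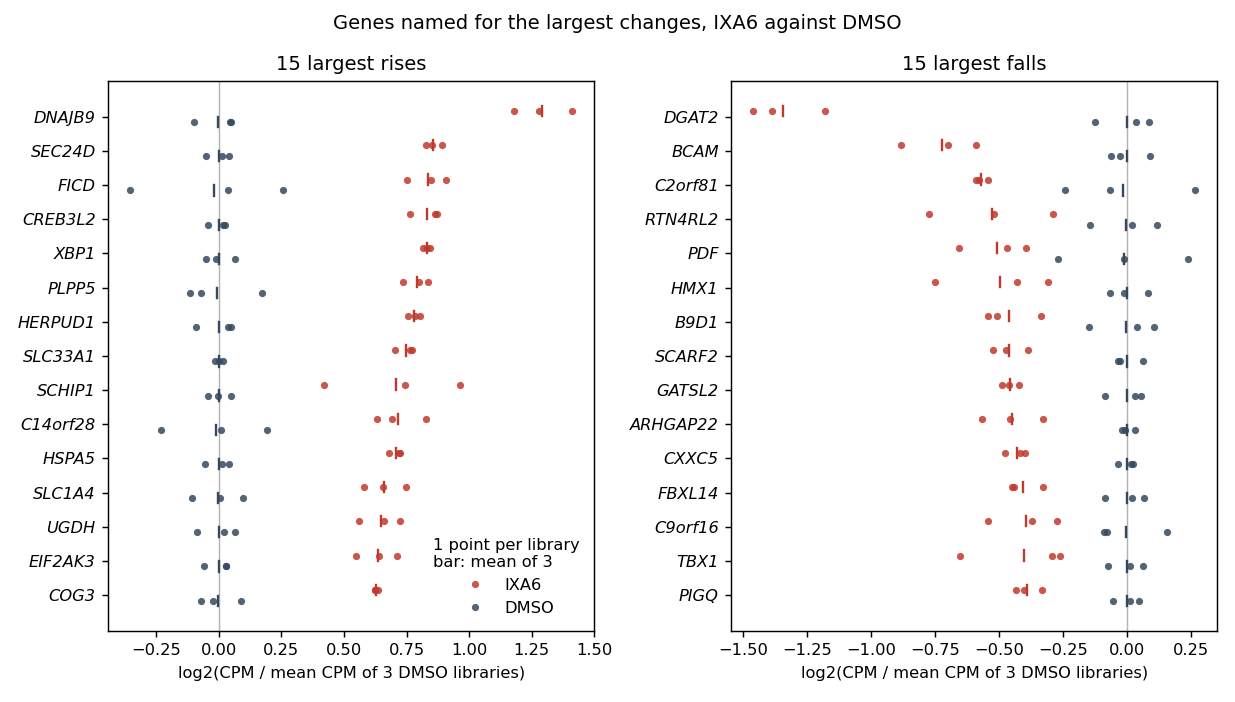
Level of the genes with the 15 largest rises (left) and 15 largest falls (right) in each of the 3 IXA6 (red) and 3 DMSO (dark) libraries, as log2 of CPM over the DMSO mean, with bars at the means. The groups do not overlap in any of these genes, a condition of the rule that chose them. DNAJB9 and DGAT2 lie farthest from 0.

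The remaining large rises were mixed in kind. FICD, the enzyme that adds AMP to BiP and removes it, stood at 4.11, 4.39 and 4.58 CPM with IXA6 and 2.5, 2.91 and 1.91 CPM with DMSO (0.83 ± 0.17 SE, adjusted p = 0.00787). Its DMSO values were scattered, and without DMSO replicate 3 its adjusted p was 0.063. PLPP5, a lipid phosphate phosphatase, rose by 0.79 ± 0.11 (SE; adjusted p = 0.000173). SLC33A1, which carries acetyl-CoA into the ER lumen, rose by 0.75 ± 0.06 (adjusted p = 7.2e-09), and SLC1A4, a neutral amino acid transporter, by 0.66 ± 0.09 (adjusted p = 6.84e-05).

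UGDH, which makes UDP-glucuronate for proteoglycans and glucuronidation, rose by 0.65 ± 0.07 (SE; adjusted p = 4.77e-06), and COG3, a subunit of the COG tether of the Golgi, by 0.63 ± 0.07 (adjusted p = 4.5e-06). SCHIP1, a partner of the tumour suppressor merlin, was at 11.19, 16.29 and 13.99 CPM with IXA6 and 8.64, 8.35 and 8.11 CPM with DMSO. Its IXA6 values were the more scattered, and the call (0.73 ± 0.15 SE, adjusted p = 0.00715) was lost without IXA6 replicate 2 (adjusted p = 0.0718). C14orf28 (0.71 ± 0.19 SE, adjusted p = 0.0457) was lost without any 1 of the 6 libraries.

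A few promoter windows of the rising genes hold DNA elements on which ATF6 and XBP1s are known to act. The 6 windows shown were picked after their letters and values were seen, 5 because they hold such an element and DNAJB9 because it had the largest rise, so they do not stand for the rising genes in general. The 250 bases before the start site are given 5′ to 3′ on the gene's strand, from RefSeq, build GRCh38.p14, matched to the count table by symbol alone. Capitals mark every CCACG on either strand (CGTGG on the printed strand where it is reversed), and a CCAAT or ATTGG where it stands at the distance of one of the elements described next. The windows are DNAJB9 at chr7:108569624-108569873 (plus strand), HSPA5 at chr9:125241344-125241593 (minus), XBP1 at chr22:28800570-28800819 (minus), FICD at chr12:108515027-108515276 (plus), HERPUD1 at chr16:56931892-56932141 (plus) and HSP90B1 at chr12:103930160-103930409 (plus).
DNAJB9: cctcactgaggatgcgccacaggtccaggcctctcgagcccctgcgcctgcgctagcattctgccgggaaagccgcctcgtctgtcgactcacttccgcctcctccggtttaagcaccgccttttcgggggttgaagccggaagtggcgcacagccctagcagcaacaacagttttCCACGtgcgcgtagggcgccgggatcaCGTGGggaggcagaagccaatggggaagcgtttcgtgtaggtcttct
HSPA5: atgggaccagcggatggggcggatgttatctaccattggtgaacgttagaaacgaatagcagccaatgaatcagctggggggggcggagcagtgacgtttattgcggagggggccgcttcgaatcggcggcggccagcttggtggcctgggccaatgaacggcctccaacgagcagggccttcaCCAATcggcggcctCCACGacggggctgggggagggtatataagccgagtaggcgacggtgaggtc
XBP1: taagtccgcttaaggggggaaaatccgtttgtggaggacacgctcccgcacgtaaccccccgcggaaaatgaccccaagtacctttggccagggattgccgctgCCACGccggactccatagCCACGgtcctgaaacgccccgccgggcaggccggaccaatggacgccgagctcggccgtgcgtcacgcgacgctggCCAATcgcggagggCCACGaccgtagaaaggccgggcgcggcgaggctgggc
FICD: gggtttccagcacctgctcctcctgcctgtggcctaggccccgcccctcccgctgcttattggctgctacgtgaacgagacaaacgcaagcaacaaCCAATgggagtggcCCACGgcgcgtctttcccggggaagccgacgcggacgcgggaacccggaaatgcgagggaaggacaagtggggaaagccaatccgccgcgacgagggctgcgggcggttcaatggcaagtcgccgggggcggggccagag
HERPUD1: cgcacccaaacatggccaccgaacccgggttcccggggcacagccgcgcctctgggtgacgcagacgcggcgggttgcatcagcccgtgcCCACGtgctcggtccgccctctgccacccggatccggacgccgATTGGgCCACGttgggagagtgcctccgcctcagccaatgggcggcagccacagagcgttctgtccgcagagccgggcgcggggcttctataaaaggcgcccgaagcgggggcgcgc
HSP90B1: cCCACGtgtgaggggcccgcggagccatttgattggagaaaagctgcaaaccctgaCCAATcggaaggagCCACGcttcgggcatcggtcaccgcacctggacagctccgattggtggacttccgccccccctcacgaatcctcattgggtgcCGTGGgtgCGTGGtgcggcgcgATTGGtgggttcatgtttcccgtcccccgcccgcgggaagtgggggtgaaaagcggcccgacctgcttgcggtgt

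The ER stress element, searched as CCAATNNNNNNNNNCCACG on both strands, is in the windows printed for HSPA5, XBP1, FICD and HSP90B1. HERPUD1 holds the related element of ATTGG, 1 base of any kind and CCACG, and DNAJB9 holds CCACG on each strand without the partner motif at that distance. All searches used the full 300-base windows, which matched 174 of the 200 higher genes, 90 of the 103 lower genes and 10890 of all 13243. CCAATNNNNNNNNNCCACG was in 8 of the 174 windows of higher genes (4.6%), in 0 of the 90 of lower genes and in 15 of all 10890 (0.138%). Of the 15 largest rises 13 had a window, of which 3 held this element, 1 the element with ATTGG and 0 the run TGACGTGG. A match is a run of letters and says nothing of binding.

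The 15 genes with that element can be followed one by one. Those called higher were FICD, XBP1, HSPA5, HSP90B1, SERP1, ERO1B, CANX and CALR, with log2 fold changes between 0.25 and 0.83. The other 7 were not called and lay between -0.05 (TMEM120A) and 0.42 (LOC105373759), with CRELD2, an ER protein with EGF-like domains, at 0.18 ± 0.07 (SE; adjusted p = 0.18). The median of the 15 was 0.31, against 0.0010 over all genes with a window.

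The element of ATTGG, 1 base and CCACG was in 10 windows of all genes (0.0918%) and in 3 of the 174 (1.72%), those of HERPUD1, HYOU1 and SDF2L1, named here after their values were seen. HYOU1, the ER nucleotide exchange chaperone also called GRP170, rose by 0.38 ± 0.05 (SE; adjusted p = 2.98e-05) and SDF2L1, a partner of ER DnaJ proteins, by 0.35 ± 0.08 (adjusted p = 0.0144). The other 7 genes with it lay between -0.07 and 0.07.

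TGACGTGG, a core of the element bound by ATF6 and XBP1s in many studies, overlaps both ACGTG and the reverse of CCACG. It was in 11 of 174 windows of higher genes (6.32%), 1 of 90 of lower genes (1.11%) and 102 of all (0.937%). Among the 11 were SRP19, TXNDC11, HYOU1, STX5, GOLGA5 and DNAJC10, which act in ER import, folding and transport, and KCNK1, LARP1B, TVP23C, SLC30A5 and ZBTB8A. The short runs were common everywhere. CCACG alone was in 64.9% of windows of higher genes, 58.9% of lower and 49.8% of all, and ACGTG in 54%, 28.9% and 26.5%.

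In the list of BiP and its co-chaperones 12 of 23 measured members rose and none fell, with a median of 0.23 over all 23. Besides DNAJB9, FICD and HSPA5 these were MANF, a BiP-binding protein that can be secreted (0.55 ± 0.05 SE), DNAJC3, a co-chaperone also called p58IPK (0.45 ± 0.05), and HSP90B1, the ER form of HSP90 (0.44 ± 0.05). HYOU1, DNAJC25, SDF2L1, DNAJC10, DNAJB11 and PPIB rose by 0.23 to 0.38. HSP90B1 was at 1266.83, 1209.77 and 1128.67 CPM with IXA6 and 874.91, 885.84 and 890.38 CPM with DMSO, so that its lowest IXA6 library was well above its highest DMSO library. With any 1 library left out, 8 to 12 members were called.

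Protein disulfide isomerases and the oxidases that drive them rose in 5 of 22 members, and none fell (median 0.08). PDIA4 had 465.49, 465.45 and 498.3 CPM in IXA6 libraries, against 323.65, 316.1 and 314.92 CPM in DMSO libraries (0.58 ± 0.05 SE, adjusted p = 7.03e-08). The groups were far apart. TXNDC11 rose by 0.45 ± 0.07 (adjusted p = 0.000545), the oxidase ERO1B by 0.42 ± 0.08 (adjusted p = 0.00618), and PDIA3 and P4HB by 0.25 and 0.22.

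Lectin chaperones and mannosidases, which read the sugar state of a folding glycoprotein, rose in 6 of 19 members, with none lower (median 0.13). ERLEC1, a lectin that hands glycoproteins to degradation, rose by 0.34 ± 0.06 (SE; adjusted p = 0.0026), calnexin (CANX) by 0.30 ± 0.05 (adjusted p = 0.000432) and EDEM3, which trims mannose, by 0.29 ± 0.07 (adjusted p = 0.0377). CANX read 1947.65, 1898.21 and 1896.95 CPM with IXA6 and 1511.4, 1574.15 and 1589.27 CPM with DMSO, without overlap. The number called was 3 without DMSO replicate 2 or 3, and EDEM3 was lost in 5 of the 6 fits that left out 1 library.

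In ER-associated degradation 5 of 31 members rose and none fell (median 0.03). They were HERPUD1, VIMP (selenoprotein S, which recruits the p97 ATPase; 0.39 ± 0.06 SE), UBXN4 (a p97 cofactor in the ER membrane; 0.38 ± 0.05), SEL1L (0.33 ± 0.05) and its partner ubiquitin ligase SYVN1 (0.32 ± 0.07). The proteasome, at which that route ends, had 0 of 35 members called by edgeR (8 at an unadjusted p under 0.05, and 1 lower by DESeq2), and the list's median was -0.02.

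**Figure D3:**
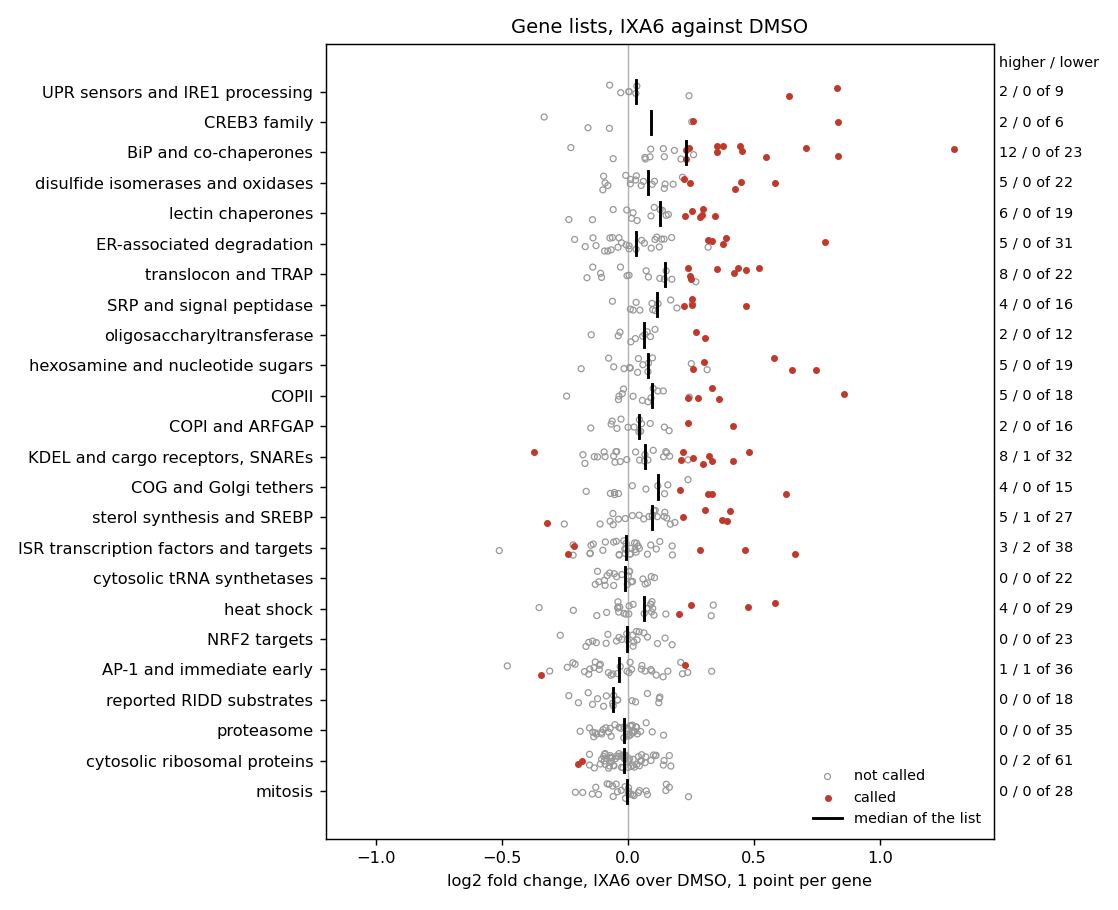
Log2 fold change of IXA6 over DMSO for each measured gene of 24 lists, 1 point per gene, filled where called, with a bar at the list's median and the counts higher and lower at the right. Filled points lie to the right in the ER and Golgi lists, except for YIF1A among the cargo receptors and SNAREs. The lists of tRNA synthetases, NRF2 targets, reported RIDD substrates, the proteasome and mitosis hold none called by edgeR.

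In the list of the Sec61 translocon and the TRAP complex 8 of 22 members rose, with a median of 0.15. SSR1, a TRAP subunit, had 396.36, 370.69 and 350.92 CPM in IXA6 libraries and 245.78, 260.96 and 273.8 CPM in DMSO libraries (0.52 ± 0.05 SE, adjusted p = 6.72e-07), which do not overlap. SSR3 rose by 0.47 ± 0.05 and SERP1, a translocon-associated protein, by 0.44 ± 0.05. SEC61A1, the pore itself, rose by 0.42 ± 0.05 (adjusted p = 2.83e-05) and the small subunit SEC61B by 0.24 ± 0.05 (adjusted p = 0.0178). The list held 5 calls without DMSO replicate 1.

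Of 16 measured subunits of the signal recognition particle, its receptor and signal peptidase, 4 rose (median 0.11). SRP19 led them at 0.47 ± 0.06 (SE; adjusted p = 1.77e-05), followed by SRP54 (0.25 ± 0.06), SRPRB (0.25 ± 0.05) and SPCS3 (0.22 ± 0.06). That count was 2 without IXA6 replicate 1 or 2 or DMSO replicate 1 or 2. Of the 12 oligosaccharyltransferase subunits OSTC (0.31 ± 0.06) and STT3A (0.27 ± 0.05) rose, and STT3A alone was called without IXA6 replicate 1 or DMSO replicate 1 or 2. ALG2, a mannosyltransferase that builds the donor sugar, rose by 0.57 ± 0.07 (adjusted p = 2.68e-05), while DPM2, a subunit of dolichol phosphate mannose synthase, fell by 0.23 (adjusted p = 0.0438), out of 24 genes of that list. The call of DPM2 was lost in 5 of the 6 fits that left out 1 library (adjusted p up to 0.176) and with a replicate block. Of the 10 members of the ER membrane complex edgeR called 0 (2 at an unadjusted p under 0.05) and DESeq2 called 1 higher. Of the 24 genes of ER shaping and ER-phagy both tools called 0 (5 at an unadjusted p under 0.05), and 1 was higher and 1 lower under the GC offset described further on.

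In the list of hexosamine and nucleotide sugar genes 5 of 19 members rose, with a median of 0.08. The list also holds SLC33A1, the carrier of acetyl-CoA, which is 1 of the 5. After SLC33A1 and UGDH, the largest was PGM3, which acts in the hexosamine pathway, at 130.38, 120.66 and 85.65 CPM with IXA6 and 65.59, 88.15 and 71.63 CPM with DMSO. PGM3 was 1 of the 3 called genes whose groups overlap (0.58 ± 0.14 SE, adjusted p = 0.0285), and its value is uncertain if counting split reads with a neighbouring gene. GMPPA rose by 0.30 ± 0.08 and GFPT1, the entry enzyme of the hexosamine pathway, by 0.26 ± 0.06. The count was 2 to 3 without IXA6 replicate 1 or 2 or DMSO replicate 1 or 3.

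Of 18 COPII genes 5 rose, among them SEC24D, MIA3 (TANGO1, which loads collagen; 0.36 ± 0.05 SE), SEC23B (0.33 ± 0.06), SEC24C (0.28 ± 0.06) and PREB, the exchange factor of SAR1 (0.24 ± 0.05). Without DMSO replicate 2 the count was 3. Of 32 cargo receptors, SNAREs and tethers 8 rose and YIF1A fell (-0.37 ± 0.09, adjusted p = 0.0239, lost in 5 of the 6 fits without 1 library), with a median of 0.07. BET1, a SNARE of ER-to-Golgi vesicles, had 49.53, 48.62 and 46.67 CPM with IXA6 and 34.43, 34.3 and 35.06 CPM with DMSO (0.48 ± 0.07 SE, adjusted p = 0.000197). Its 2 groups were each within a few CPM.

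TMED7 (0.42 ± 0.07 SE) and TMED10 (0.33 ± 0.04), members of the p24 cargo receptor family, rose too, the first with reads that a readthrough gene may share. Without IXA6 replicate 2 the number of cargo receptors, SNAREs and tethers called higher was 5, and without DMSO replicate 2 it was 4. At the Golgi, 4 of 15 tethers rose, COG3, GOLGA4 (0.33 ± 0.05), GOLGA5 (0.32 ± 0.06) and GORASP2 (0.21 ± 0.05). For the COPI coat and its regulators 2 of 16 rose, ARFGAP3 (0.41 ± 0.06) and ARF4 (0.24 ± 0.05). ARFGAP3 was the 1 of these that stayed called without IXA6 replicate 1 or 2 or DMSO replicate 1 or 2.

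The integrated stress response had no common direction. Of its 38 measured members 3 rose and 2 fell, with 18 above 0 and a median of -0.01. ATF4 had 611.43, 588.21 and 627.63 CPM in IXA6 libraries and 642.57, 614.53 and 588.45 CPM in DMSO libraries, which overlap (-0.01 ± 0.05 SE, adjusted p = 0.925). CHAC1, which degrades glutathione and is a sensitive ISR target, overlapped too, at 3.51, 2.35 and 2.99 CPM with IXA6 and 2.37, 3.24 and 3.29 CPM with DMSO (-0.01 ± 0.17 SE, adjusted p = 0.99). TRIB3 (0.03 ± 0.11), ATF3 (0.09 ± 0.07), PPP1R15A (0.04 ± 0.07) and ASNS (0.01 ± 0.06) were likewise not called.

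The ISR members called higher were SLC1A4, DDIT3 and ALDH1L2. DDIT3, which encodes CHOP, had 9.34, 7.83 and 7.12 CPM with IXA6 and 5.76, 5.89 and 5.93 CPM with DMSO (0.46 ± 0.12 SE, adjusted p = 0.0353). All 3 IXA6 values were above the DMSO values, replicate 1 most of all, and the call was lost in 5 of the 6 fits that left out 1 library (adjusted p up to 0.214). ALDH1L2, a mitochondrial folate enzyme, rose by 0.28 ± 0.06 (adjusted p = 0.00799). The amino acid transporters SLC7A5 (-0.24 ± 0.06, adjusted p = 0.0424) and SLC1A5 (-0.22 ± 0.05, adjusted p = 0.0271) fell, and each lost its call in 5 of those fits. Among 22 cytosolic tRNA synthetases, many of them ATF4 targets, edgeR and DESeq2 called 0 (3 at an unadjusted p under 0.05), and the list's median was -0.02.

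Heat shock genes counted 4 rises and no falls among 29 measured, with a median of 0.06. HSPA1B had 1008.19, 1118.45 and 977.72 CPM with IXA6, against 730.17, 689.15 and 651.44 CPM with DMSO (0.58 ± 0.08 SE, adjusted p = 3.89e-05). HSPA1A, its near-identical neighbour, rose by 0.47 ± 0.08 (adjusted p = 0.00123), and since reads cannot be assigned between them with certainty, these are not independent values. CHORDC1, a co-chaperone of HSP90 (0.25 ± 0.06), and HSPE1, the mitochondrial chaperonin lid (0.20 ± 0.05), were the others. The constitutive HSPA8 overlapped between the groups (0.02 ± 0.06, adjusted p = 0.902). The count was 2 without IXA6 replicate 1 or any 1 DMSO replicate.

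Of 23 NRF2 targets edgeR called 0 (3 at an unadjusted p under 0.05) and DESeq2 called 1 lower, with NQO1 at 0.04 ± 0.15 and HMOX1 at -0.27 ± 0.08 (adjusted p = 0.0865), although all 3 HMOX1 values with IXA6 lay below those with DMSO. Of 18 reported substrates of IRE1-dependent mRNA decay edgeR also called 0 (2 at an unadjusted p under 0.05, both lower), and their median was -0.06. DESeq2, the fit of the 6 libraries alone and the GC offset each called 1 lower. BLOC1S1, the substrate most used in mammalian cells, had 33.84, 40.35 and 35.8 CPM with IXA6 and 34.17, 35.6 and 39.14 CPM with DMSO, which overlap (0.02 ± 0.09 SE, adjusted p = 0.951). Of the immediate early genes JUN rose (0.23 ± 0.05, adjusted p = 0.0117) and IER2 fell (-0.35 ± 0.09, adjusted p = 0.0424) out of 36, and both were lost in several of the fits that left out 1 library. EdgeR called 0 of 28 mitosis genes (9 at an unadjusted p under 0.05), 18 p53 targets (1), 12 NF-kB genes (4), 25 autophagy genes (4), 46 respiratory chain genes (10) and 70 mitochondrial ribosomal proteins (13). Over all 13243 genes, 2246 had an unadjusted p under 0.05 in this comparison by edgeR. DESeq2 called 1 mitosis gene higher, 1 autophagy gene lower and 1 respiratory chain gene in each direction.

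Of the sterol genes 5 were called higher and 1 lower, and 19 lay above 0. STARD4, a sterol carrier (0.40 ± 0.07 SE), IDI1 (0.39 ± 0.06) and HMGCS1 (0.37 ± 0.05), enzymes of the mevalonate pathway, rose together with INSIG1 (0.31 ± 0.05) and SQLE (0.22 ± 0.04), out of 27 measured. SREBF1, a transcription factor of lipid synthesis, fell by 0.32 (adjusted p = 0.0249), and that call was lost without IXA6 replicate 1 or DMSO replicate 1 or 3. The median of the list was 0.10.

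Single members of other lists passed the test with less support. CREBZF, a bZIP factor related to CREB3, rose by 0.26 ± 0.06 (SE, adjusted p = 0.0294), and its call was lost in 4 of the 6 fits without 1 library. With CREB3L2 it made 2 of the 6 measured genes of a list of CREB3 and related factors. The calcium-binding proteins NUCB2 and RCN2 were the 2 of 23 ER calcium genes that rose, and 0 to 1 were called without IXA6 replicate 1 or 2 or any DMSO replicate. Of 438 measured zinc finger genes 3 rose (0.685%), ZNF550, ZNF300 and ZNF711, a share below the 1.51% over all genes. None fell, and 0 were called without IXA6 replicate 1 or 2 or DMSO replicate 2. Among 240 solute carriers 5 rose (2.08%, against 1.51% over all genes) and 4 fell (1.67%, against 0.778%), and their median was -0.01. The bile acid transporter relative SLC10A7 had 34.03, 33.86 and 30.39 CPM with IXA6 and 24.51, 24.21 and 25.5 CPM with DMSO, without overlap (0.41 ± 0.08 SE, adjusted p = 0.00793), and was lost without IXA6 replicate 2 or DMSO replicate 2 (adjusted p up to 0.0534).

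The largest fall named was in DGAT2, the enzyme of the last step of triacylglycerol synthesis. It stood at 3.51, 3.69 and 4.26 CPM in IXA6 libraries and 8.83, 10.23 and 9.88 CPM in DMSO libraries, with a log2 fold change of -1.33 ± 0.17 (SE) and an adjusted p of 2.45e-05. Its highest IXA6 value was less than its lowest DMSO value by a wide margin. Of 26 genes of fatty acid and triacylglycerol synthesis edgeR called DGAT2 alone, and their median was -0.06. DESeq2 gave DGAT2 no adjusted p and called 1 other member higher, and the fit of the 6 libraries alone called 2 members lower. BCAM, a laminin receptor on the cell surface, came next at 7.22, 8.85 and 8.2 CPM with IXA6 and 13.05, 14.17 and 12.72 CPM with DMSO (-0.72 ± 0.11 SE, adjusted p = 0.000579), also without overlap.

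The other 13 largest falls, between -0.57 (C2orf81) and -0.39 (PIGQ), belonged to no common list. They include the Nogo receptor relative RTN4RL2 (-0.51 ± 0.14 SE), the mitochondrial peptide deformylase PDF (-0.50 ± 0.12), the homeobox factor HMX1 (-0.48 ± 0.11), the scavenger receptor SCARF2 (-0.46 ± 0.09), the ciliary transition zone protein B9D1 (-0.46 ± 0.11) and the T-box factor TBX1 (-0.39 ± 0.08). PIGQ, an enzyme of the first step of GPI anchor synthesis, and DPM2 were the 2 of 25 GPI anchor genes that fell. Of the 15 largest falls, the calls of DGAT2, BCAM, SCARF2 and PIGQ held in each of the 6 fits without 1 library, and those of the other 11 were lost in at least 1. Of 61 cytosolic ribosomal proteins RPLP0 (-0.20 ± 0.05) and RPL13 (-0.18 ± 0.05) fell, and both were lost in most of those fits.

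Base composition moved with the direction of change. The median GC content of the longest annotated transcript was 41.2% for the 200 higher genes, 60.1% for the 103 lower genes and 48.1% for all genes tested with a value. The quartile of genes richest in GC held 73 of the 103 falls and 11 of the 200 rises, and the poorest quartile held 3 falls and 111 rises. In the richest quartile the median deviation from the DMSO mean was -0.15, -0.09 and -0.03 in IXA6 replicates 1, 2 and 3, against 0.02, 0.01 and -0.03 in DMSO replicates 1, 2 and 3. In the poorest quartile it was 0.13, 0.07 and 0.02 with IXA6 and -0.02, -0.01 and 0.03 with DMSO. IXA6 replicate 1 stood farthest out and IXA6 replicate 3 lay closest to the DMSO libraries, just below them at the rich end and within their range at the poor end.

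**Figure D4:**
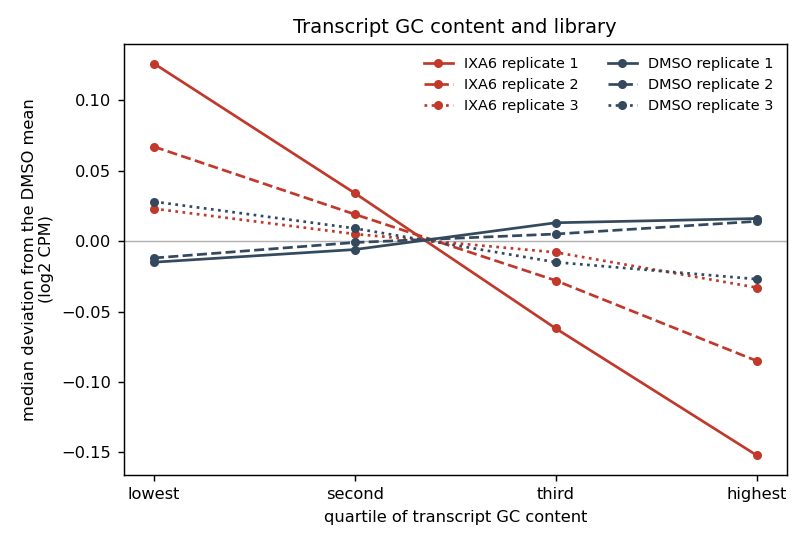
Median deviation from the DMSO mean (log2 CPM, vertical axis) of the genes in each quartile of transcript GC content (horizontal axis), 1 line per library, for IXA6 (red) and DMSO (dark). The line of IXA6 replicate 1 is the steepest, running between 0.13 and -0.15, and that of IXA6 replicate 3 lies closest to the DMSO lines.

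With the GC trend of each library removed by an offset, an alternative added after seeing the data, 271 genes were called, 207 higher and 64 lower, of which 193 were among the 303. The counts of the ER groups were close to those without the offset, with 13 of 23 BiP and co-chaperone genes, 8 of 22 translocon genes and 5 of 31 degradation genes higher. DGAT2 was at -1.30 (adjusted p = 2.56e-05), BCAM at -0.61 (adjusted p = 0.00148), SCARF2 at -0.29 (adjusted p = 0.0257) and PIGQ at -0.26 (adjusted p = 0.0431) under it. The calls of the other 11 of the 15 largest falls were lost. Each of the 15 was smaller in size with the offset than without it, by differing amounts. CXXC5 went from -0.43 to -0.35 (adjusted p = 0.0549 by edgeR) and C2orf81 from -0.57 to -0.47 (adjusted p = 0.084). FBXL14 went from -0.41 to -0.34 (adjusted p = 0.0832), HMX1 from -0.48 to -0.30 (adjusted p = 0.123) and TBX1 from -0.39 to -0.24 (adjusted p = 0.0666). Of the other named genes SLC7A5, SLC1A5, SLC19A1, SREBF1, IER2, DPM2, RPL13, CHORDC1, ZNF300 and C14orf28 also lost their calls.

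A few calls among the largest fold changes rested on 1 library or on low counts, and were named after their values were seen. PCDHGB7 had 1.92, 1.78 and 33.25 CPM in IXA6 libraries and 2.11, 2.01 and 2.11 CPM in DMSO libraries, and without IXA6 replicate 3 its log2 fold change was -0.17 (adjusted p = 0.763). TMEM200B had 2.38, 2.61 and 2.67 CPM with IXA6 and 30.46, 2.46 and 2.57 CPM with DMSO, and without DMSO replicate 1 it was at 0.02 (adjusted p = 0.974). These are single-library values, not differences between the groups. TMEM184A and RBAK-RBAKDN were called with 0 counts in at least 1 library.

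IXA6 was next set against IXA4, IXA1 and Tg in 3 pairwise tests of the difference itself, at the same time but at doses not given. The question is where IXA6 differs in response from IXA4 and IXA1, which are described alike, and from Tg, which is described as a global activator. Adjusted p-values are over all genes within each pair. These pairs share the IXA6 libraries with the comparison above, so their values stand side by side and are not independent of it.

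Between IXA6 and IXA4 edgeR called 0 of 13243 genes (0%). The smallest adjusted p was 0.0588, 1222 genes had an unadjusted p under 0.05, and DESeq2 called 22 genes, 18 higher and 4 lower. Over genes with a mean of at least 2 CPM the median bounds of the 95% interval of the difference were -0.16 and 0.16, and for 90.7% of 11899 such genes the interval lay within 0.5 on the log2 scale either way. For DNAJB9 the difference was 0.06 (95% interval -0.09 to 0.20), for HSPA5 0.02 (-0.08 to 0.11), for XBP1 -0.01 (-0.10 to 0.09) and for DGAT2 -0.12 (-0.50 to 0.26). For DNAJB9, HSPA5 and XBP1 the interval was narrow beside the change from DMSO, and for DGAT2 it was wider. A difference within such an interval cannot be told from none.

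CHAC1 had the widest gap of the panel between these compounds. It was at 3.51, 2.35 and 2.99 CPM in IXA6 libraries and 6, 4.92 and 5.3 CPM in IXA4 libraries, a difference of -0.88 (95% interval -1.18 to -0.57, unadjusted p = 5.43e-06, adjusted p = 0.0588 by edgeR). The groups did not overlap, the adjusted p missed the threshold, and without IXA6 replicate 1 it was 0.0287. Of the 38 ISR genes 6 were higher with IXA6 than with IXA4 and none was called, with a median difference of -0.11, against -0.0014 over all genes.

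**Figure D5:**
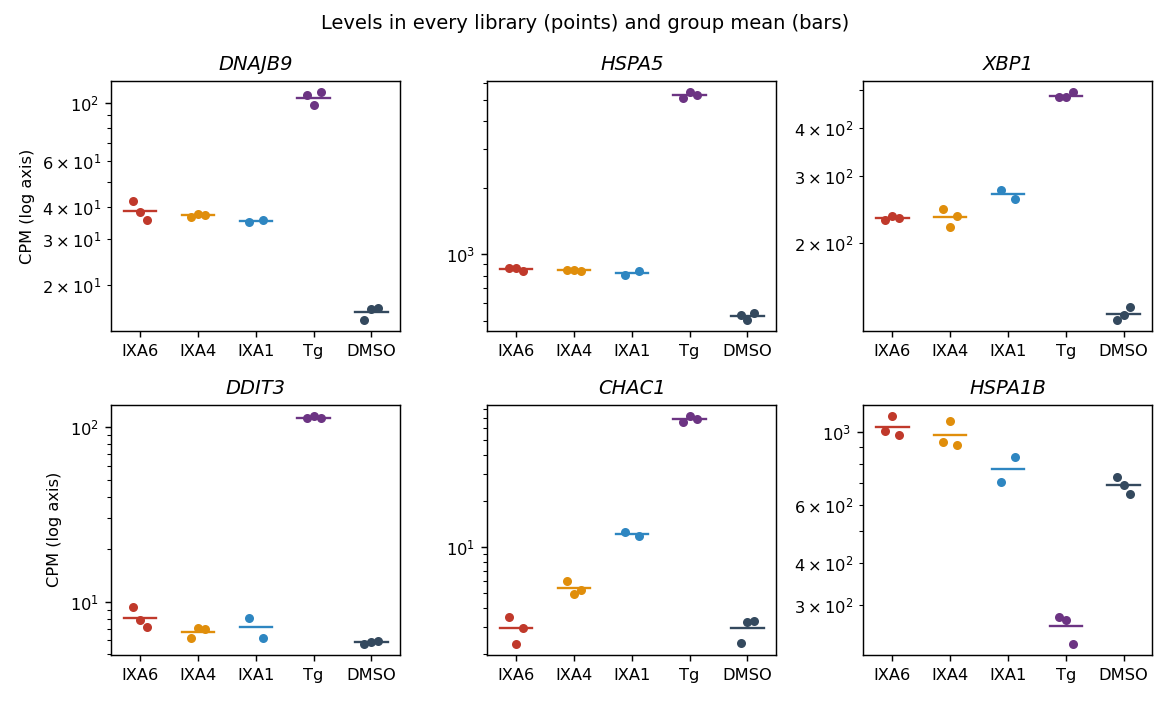
CPM (log axis) of 6 genes in every library of the 5 groups, with a bar at each group's mean; the 3 genes of the upper row are ER or XBP1 genes, and the lower row holds DDIT3, CHAC1 and HSPA1B. IXA6, IXA4 and IXA1 lie close together in the upper row, far below Tg. CHAC1 with IXA6 lies at the level of DMSO.

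Between IXA6 and IXA1 974 genes differed (7.35%), 374 higher with IXA6 (2.82%) and 600 lower (4.53%). In the integrated stress response 21 of 38 members were lower with IXA6, none was higher and the median was -0.28, against 0.0073 over all genes. CHAC1 had 3.51, 2.35 and 2.99 CPM with IXA6, against 12.59 and 11.87 CPM with IXA1 (-2.05 ± 0.14 SE, adjusted p = 6.85e-09). SESN2, a stress-induced inhibitor of mTORC1, averaged 52.2 CPM with IXA6 and 97.3 CPM with IXA1 (-0.90 ± 0.09 SE, adjusted p = 1.18e-06), and ATF4 was also lower (-0.41 ± 0.06 SE, adjusted p = 0.000434). So were XBP1 (-0.20 ± 0.05, adjusted p = 0.0206) and HERPUD1 (-0.32 ± 0.06, adjusted p = 0.00326).

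Of the 23 BiP and co-chaperone genes 1 was higher with IXA6 than with IXA1 and none was lower. ERO1B was higher with IXA6 than with IXA1 by 0.49 (adjusted p = 0.00369) and UGDH by 0.31 (adjusted p = 0.0213), while DNAJB9 (0.13, adjusted p = 0.307), HSPA5 (0.06, adjusted p = 0.513) and SEC24D (0.10, adjusted p = 0.349) were not called. TXNIP, a thioredoxin-binding protein, averaged 27.9 ± 3.1 CPM with IXA6 (SD, n = 3) and 13.2 ± 2 CPM with IXA1 (SD, n = 2). The difference was 1.08 ± 0.11 (SE, adjusted p = 2.87e-06 by edgeR). MAT2A, which makes S-adenosylmethionine, was higher by 0.87 ± 0.07 (adjusted p = 1.45e-07). Neither TXNIP nor MAT2A was called between IXA6 and DMSO (adjusted p = 0.147 and 0.133). In the heat shock list 7 of 29 members were higher with IXA6 than with IXA1 and 2 were lower, with HSPA1B at 0.42 (adjusted p = 0.00502).

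The counts against IXA1 depended on single libraries. Without IXA1 replicate 1 or 2 there were 113 and 204 calls, in fits where the remaining IXA1 library is assumed to vary like the other groups. Without IXA6 replicate 1 or 2 there were 341 and 533.

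Against Tg 4108 genes differed (31%), 1886 higher with IXA6 (14.2%) and 2222 lower (16.8%). The ER chaperones that rose with IXA6 stood far below their level with Tg. HSPA5 had 861.99, 864.53 and 839.81 CPM with IXA6 and 5099.19, 5415.22 and 5295.84 CPM with Tg, and of the BiP and co-chaperone list 17 of 23 members were lower and 1 was higher, with a median difference of -0.73. DNAJB9 was at 107.08, 97.99 and 109.95 CPM with Tg, and the difference was -1.45 ± 0.07 (SE; adjusted p = 1.69e-14 by edgeR). HERPUD1 differed by -3.20 ± 0.05 (adjusted p = 1.2e-22).

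Of 38 ISR genes 35 were lower with IXA6 than with Tg and 1 was higher, with a median difference of -1.51. The largest differences were in CHAC1 (-4.55 ± 0.11 SE, adjusted p = 7.45e-20), the peptide hormone gene ADM2 (-4.08 ± 0.25, adjusted p = 5.4e-12), LBH, a transcriptional cofactor (-4.02 ± 0.14, adjusted p = 5.38e-17), and DDIT3 (-3.81 ± 0.09, adjusted p = 2.31e-20). Of these 4, all but LBH belong to the ISR list. Cytosolic tRNA synthetases were lower in 16 of 22. Heat shock genes ran the other way, with 16 of 29 higher with IXA6 than with Tg and 3 lower. HSPA1B had 1008.19, 1118.45 and 977.72 CPM with IXA6, against 275.8, 270.25 and 228.66 CPM with Tg. With DMSO it had 730.17, 689.15 and 651.44 CPM, also above Tg. HSPA8 averaged 4250 CPM with IXA6, 4200 CPM with DMSO and 1450 CPM with Tg. Among 28 mitosis genes 19 were higher with IXA6 than with Tg and 1 was lower. Between IXA6 and DMSO edgeR called 0 of these mitosis genes, with a median of -0.006.

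DGAT2 and BCAM, which led the 15 largest falls named with IXA6, were lower still with Tg. DGAT2 had 3.51, 3.69 and 4.26 CPM with IXA6, 1.16, 0.8 and 0.41 CPM with Tg and 8.83, 10.23 and 9.88 CPM with DMSO. BCAM had 7.22, 8.85 and 8.2 CPM with IXA6, 1.91, 2.62 and 2.17 CPM with Tg and 13.05, 14.17 and 12.72 CPM with DMSO. Each was higher with IXA6 than with Tg, by 2.27 ± 0.25 for DGAT2 (SE; adjusted p = 1.64e-07) and 1.86 ± 0.15 for BCAM (adjusted p = 9.65e-10).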

How the data were processed

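RNA-seq of HEK293T cells was analysed from the counts per gene symbol that the authors deposited, whole numbers without normalization. GRCh37.p13 and DESeq are named per the submitters' processing notes, while no source at hand states the aligner, the counting tool or the use of strand. Of 15 count columns, 14 bear the name of a sample; the 1 left over, named IXA3r3, fits no sample title and was not used, and whether it holds the third IXA1 sample is not known. In 22 rows (0.249% to 0.282% of counts) the symbol is a calendar date; they were fitted but are named nowhere. The log2 fold changes and p-values that the authors deposited for IXA6 were only set beside those found here. Per the file headers that table does not name its control, and in 13242 rows its log2 fold change and its statistic differ in sign.

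Counts were fitted with edgeR 4.0.16 in R 4.3.3, with TMM factors, the default expression filter (0 genes removed) and the quasi-likelihood test in 1 fit of all 14 libraries with no covariate. Adjustment was by Benjamini-Hochberg within each pair of groups, at 0.05. No gene of the deposited table had fewer than 73 counts over the 14 libraries. The standard error is the size of the log2 fold change over the square root of F. The p-values set a difference against the spread between libraries of a group, estimated over all 14 libraries. Transcript GC content came from GENCODE v29 (13037 genes matched), and promoter windows from RefSeq (GRCh38.p14), by symbol. Values of near-identical paralogs, readthrough genes and overlapping genes are uncertain where counting could split their reads. Lists are described by counts and medians. The fit was tested on simulated counts with known changes between IXA6 and DMSO. It recovered 53.7% of 1.25-fold, 85.1% of 1.5-fold and 98.5% of 2-fold changes. Small changes can therefore be missed in lists with 0 genes called.

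Named genes are, among called genes that average at least 2 CPM and do not overlap between the groups, the 15 largest rises and 15 largest falls, then up to 3 called members of each list in each direction, a panel of stress genes, and the 5 largest differences each way for another compound. Further members named behind a count were picked after their values were seen. Members, lists and rule were chosen with earlier results of these data known, so they support nothing independently. Alternatives were another scaling, other filters, DESeq2 1.42.0, a minimum fold, a replicate block, fits of 2 groups, a GC offset and leaving out each library.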

Additional observations from a re-analysis of the deposited data

How the results depend on the processing

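For IXA6 against DMSO, with 303 genes called (200 higher, 103 lower), RLE factors gave 301 and no filter 303. A minimum fold of 1.2 gave 25 (23 higher and 2 lower, DGAT2 and BCAM). The fit of the 6 libraries alone called 436 genes (259 higher, 177 lower), of which 287 were among the 303. DESeq2 called 444 (280 higher, 164 lower), of which 269 were among them. The GC offset called 271 (207 higher, 64 lower), of which 193 were. Leaving out 1 library gave 118 to 319 genes, 102 to 202 higher and 15 to 117 lower. Of the 85 named genes that were called, 45 kept the call in each of those fits, 40 lost it in at least 1, and none of the 85 changed sign under any alternative run. Of the called genes named for resting on 1 library, PCDHGB7 (2.57) was at -0.17 without IXA6 replicate 3 and TMEM200B (-2.21) at 0.02 without DMSO replicate 1. DESeq2 gave no adjusted p for 16 of the 96 named genes. For IXA6 against IXA4, where 0 were called, the fit of those groups alone gave 13 (10 higher, 3 lower) and DESeq2 22 (18 higher, 4 lower). The lower genes were H1FX, RBAK-RBAKDN and TMOD1 in the first, and H1FX, IRAK1, MYC and SAMD11 in the second. Leaving out 1 library gave 0 to 2 genes, 0 to 2 higher and 0 to 1 lower; the calls were CHAC1 and SEPP1 without IXA6 replicate 1, and CCAR1 and MYBL1 without IXA4 replicate 3. For IXA6 against IXA1 it gave 113 to 1128 genes, 28 to 463 higher and 85 to 665 lower. Counts against Tg stayed within 1.5 times under each alternative run. The cause of these shifts was not tested.

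IXA6 and DMSO samples share only a replicate number. Deviations of same-numbered samples had correlations of -0.039, -0.173 and -0.081 across 11878 genes, and the number was not treated as a pairing. With a replicate block 265 genes were called, 187 higher and 78 lower, and against IXA4, IXA1 and Tg the counts were 0, 927 and 3971.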
